A study of Arabidopsis thaliana with 12 samples.

Results

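The 10 genes described here are heat shock genes of *Arabidopsis thaliana*, which are defined by a fixed list of loci. They comprise the heat shock factor gene *HSFA2* (AT2G26150), the chaperone genes *HSP101* (AT1G74310) and *HSP90.1* (AT5G52640), and 7 small heat shock protein genes. The latter are *HSP17.4* (AT3G46230), *HSP17.6C* (AT1G53540) and *HSP18.2* (AT5G59720) of class I, *HSP17.6A* (AT5G12030) and *HSP17.6II* (AT5G12020) of class II, *HSP21* (AT4G27670) and *HSP22* (AT4G10250). The nuclear gene *HSP21* encodes a plastid protein, and *HSP22* one of the endoplasmic reticulum. Of the 10 genes, 8 were among the 23069 genes of the expression table, and all 8 passed the filter on low values. Expression of *HSP21* and *HSP22* is not analysed here. RNA-seq was performed on rosette leaves of 30-day-old plants in 6 libraries. One group was wild-type (WT) Col-0, and the other was the *kaku4-2* mutant, in which the T-DNA insertion SALK_076754 lowers expression of *KAKU4*, a gene for a putative component of the plant nuclear lamina. Each group had 3 biological replicates, and the mutant was a single insertion line. No heat treatment is given for these plants, and the values are taken to describe heat shock transcripts in unheated leaves.

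Heat shock proteins are molecular chaperones, which bind unfolded or aggregating proteins. In plants, heat activates class A1 heat shock factors that are already present, and these bind heat shock elements, repeats of a short inverted unit upstream of target genes. HSFA2 is itself a target that is strongly induced by heat and then prolongs the response as an activator of chaperone genes. In leaves that have not been heated, most heat-inducible small heat shock protein transcripts are scarce.

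Heat shock elements were searched for around the annotated start of each gene, since these are the sites where heat shock factors bind. The element was written as GAANNTTCNNGAA or, on the other strand, TTCNNGAANNTTC, with 3 units. The core with 2 units was written as GAANNTTC or TTCNNGAA, and every element with 3 units contains cores with 2. The windows ran from 250 bases before to 50 bases after the start, in the RefSeq TAIR10.1 sequence. The element with 3 units was found in the windows of *HSFA2*, *HSP17.4* and *HSP17.6C*, and the core with 2 units also in those of *HSP17.6A*, *HSP101* and *HSP21*. That is 3 of 10 genes (30%) and 6 of 10 genes (60%), beside 0.481% and 19.3% of the 27443 windows of protein-coding genes. The 250 bases before the start are printed for the 3 genes with an element of 3 units. Those of *HSP17.6A* were added because that gene was upregulated, so this choice links no element to a change. *HSP17.6C*, with an element of 3 units, was neither up- nor downregulated, and *HSP101* and *HSP21*, with a core, are not printed. Each is read 5′ to 3′ on the strand of its gene, and capitals mark the unit letters. The stretches are chr2:11135374-11135623 (plus strand) for *HSFA2*, chr3:16984868-16985117 (minus strand) for *HSP17.4*, chr1:19980049-19980298 (plus strand) for *HSP17.6C* and chr5:3884839-3885088 (minus strand) for *HSP17.6A*.
HSFA2: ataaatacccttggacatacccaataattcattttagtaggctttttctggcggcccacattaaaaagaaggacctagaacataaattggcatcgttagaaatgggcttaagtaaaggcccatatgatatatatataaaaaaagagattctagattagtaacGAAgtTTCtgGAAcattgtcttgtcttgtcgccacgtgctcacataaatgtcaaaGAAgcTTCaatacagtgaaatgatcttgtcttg
HSP17.4: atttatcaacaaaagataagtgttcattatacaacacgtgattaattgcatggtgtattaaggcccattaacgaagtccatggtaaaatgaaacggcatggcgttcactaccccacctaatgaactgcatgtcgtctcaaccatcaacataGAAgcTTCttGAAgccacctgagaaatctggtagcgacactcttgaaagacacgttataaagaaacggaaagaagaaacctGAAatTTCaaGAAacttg
HSP17.6C: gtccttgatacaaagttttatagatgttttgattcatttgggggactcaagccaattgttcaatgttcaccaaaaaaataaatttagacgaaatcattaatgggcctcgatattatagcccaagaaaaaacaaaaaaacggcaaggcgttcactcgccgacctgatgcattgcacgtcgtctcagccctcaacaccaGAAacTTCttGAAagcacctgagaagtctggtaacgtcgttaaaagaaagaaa
HSP17.6A: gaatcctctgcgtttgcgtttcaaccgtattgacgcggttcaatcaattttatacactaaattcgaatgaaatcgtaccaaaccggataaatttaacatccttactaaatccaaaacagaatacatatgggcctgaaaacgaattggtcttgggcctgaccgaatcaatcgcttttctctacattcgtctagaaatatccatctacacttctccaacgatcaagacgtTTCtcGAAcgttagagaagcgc

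Counted from the start as base +1, the element of *HSFA2* began at −88, and further cores began at −33 and +7. *HSP17.4* carried 1 element at −99 and another at −18, and *HSP17.6C* carried 1 at −53. The only core of *HSP17.6A* began at −22, and that of *HSP101* at +30. No match was found in the windows of *HSP90.1*, *HSP17.6II*, *HSP18.2* and *HSP22*. For *HSP90.1* the annotated gene begins at its start codon, so its window is not placed on a transcription start. Coding begins 309 bases after the annotated start in *HSP18.2*, 235 in *HSP17.6II* and 199 in *HSP22*, beyond the end of their windows. The bases between window and coding start were not searched, so the lack of a match holds for the windows alone. Whether transcription begins at the annotated start was not tested. A match describes letters only, and binding of a factor was not measured.

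**Figure D1:**
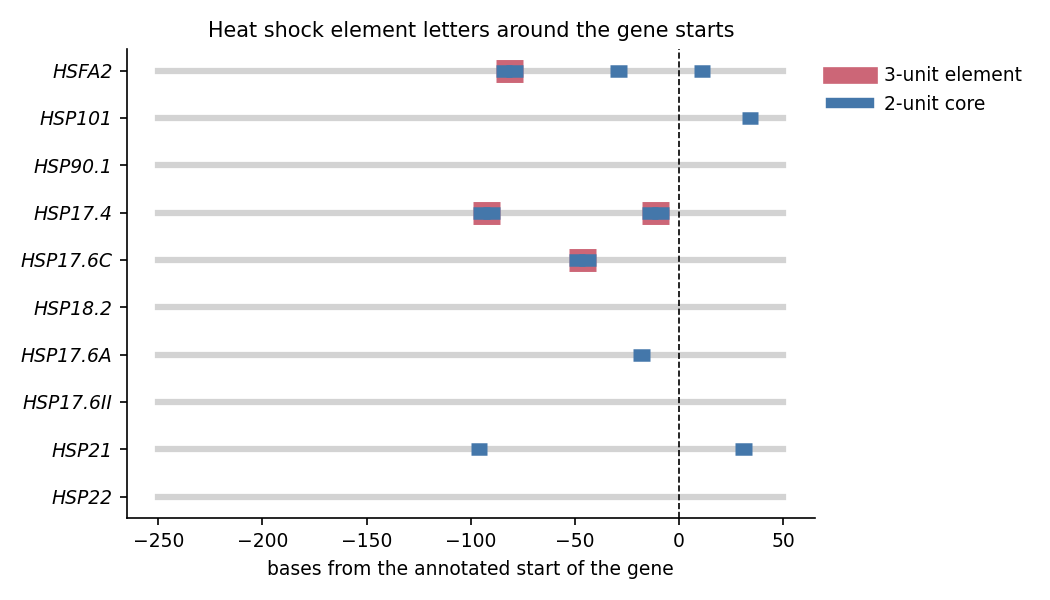
Positions of heat shock element letters in the windows of the 10 genes, in bases from the annotated start of the gene (dashed line), with the element of 3 units in red and the core of 2 units in blue. Elements of 3 units are seen in *HSFA2*, *HSP17.4* and *HSP17.6C*, and 4 genes have no match.

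The *KAKU4* transcript was first checked in every library. It stood at 2.69, 3.61 and 2.51 FPKM (fragments scaled by transcript length and library size, as calculated by the authors) in WT replicates 1, 2 and 3, and at 0.402, 0.433 and 0.313 FPKM in the *kaku4-2* libraries, 7.67-fold lower on average. Leaf genes dominated in both groups, with *RBCS1A*, *RBCS3B* and *CA1* summing to between 11278 and 18482 FPKM, whereas seed and flower markers summed to no more than 3.41 FPKM in any library. The third *kaku4-2* library stood apart from the rest. Its FPKM summed to 829805, against 1.25e+06 to 1.77e+06 in the other 5 libraries, and it correlated with them at r between 0.895 and 0.936 across genes. Relative to the other *kaku4-2* libraries, its values rose with transcript length, from a median of −1.04 on the log2 scale for the shortest genes to 1.24 for the longest. Each result is therefore given with its value without this library where that changes the outcome.

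The heat shock genes were expressed at low to moderate levels in WT leaves. *HSFA2* was the highest at 6.31 ± 1.02 FPKM (SD, n = 3) and *HSP90.1* was next at 4.85 ± 0.652 FPKM. *HSP17.6II* (2.08 ± 1.11), *HSP18.2* (1.99 ± 0.262), *HSP17.6A* (1.81 ± 0.483) and *HSP17.4* (1.49 ± 0.463) followed, and neighbours in this order differed by less than their spread. *HSP101* (0.773 ± 0.319) and *HSP17.6C* (0.757 ± 0.291) were lowest and could not be separated. *HSFA2* stood at the percentile 52.0 of the mean WT level of all genes tested, *HSP90.1* at 47.4, and the other 6 genes at 32.9 or below. In the *kaku4-2* mutant *HSP17.4* was at 4.27 ± 0.238 FPKM, *HSP90.1* at 3.70 ± 1.97 and *HSP17.6A* at 3.47 ± 0.639, and *HSP90.1* could not be separated from either by its spread. *HSP18.2* was at 2.38 ± 0.220 FPKM. *HSFA2* stood at 1.37 ± 0.683 FPKM, a level at the percentile 23.52, and was not separated from *HSP17.6II* at 1.49 ± 0.549. *HSP17.6C* (0.746 ± 0.548) and *HSP101* (0.496 ± 0.0491) were again lowest. FPKM are scaled by transcript length, but in *kaku4-2* replicate 3 values still rose with length relative to the other mutant libraries. The order of the mutant means is therefore uncertain between genes of unlike length. The low values also rest on few fragments. From the spacing of low FPKM values the number of fragments behind a value was estimated as 30.4 to 263 for *HSFA2*, 8.96 to 60.9 for *HSP17.4* and 3.24 to 21 for *HSP17.6C*. These are rough figures, which rest on fitted divisors of 1.93e+07 fragments in WT replicate 3 to 3.19e+07 in *kaku4-2* replicate 3. The library summary of the study lists all 6 libraries at nearly equal depth, so the fragments of *kaku4-2* replicate 3 may be overestimated.

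**Figure D2:**
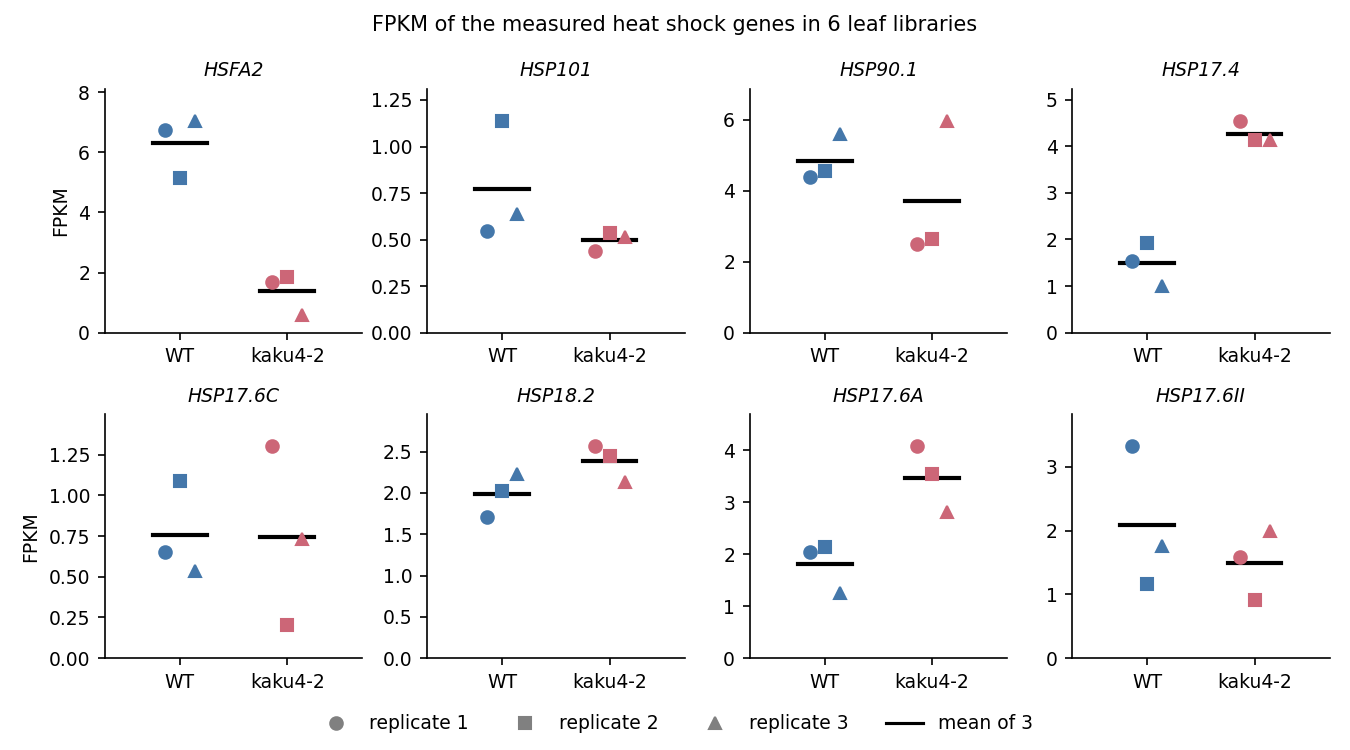
FPKM of the 8 measured heat shock genes in each of the 6 leaf libraries (symbols mark replicates 1, 2 and 3, lines the mean of 3), each panel with its own axis from 0. The groups do not overlap for *HSFA2* and *HSP101*, lower in *kaku4-2*, and for *HSP17.4* and *HSP17.6A*, higher in *kaku4-2*. Over all genes tested, 15% did not overlap in the lower direction and 7.92% in the higher.

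The first question was whether the knockdown of *KAKU4* changed these transcripts. The 8 genes did not move together: 2 small heat shock protein genes were upregulated, *HSFA2* was downregulated, and 5 genes did not pass the test. A gene is called up- or downregulated here with the cutoff of the study: the medians of the groups differ by 0.6 or more on the log2 scale, and the P-value, here from limma, is 0.05 or less before adjustment. The study does not name the test behind its P-value, and its own calls differ in number from those made here. Over all 20638 genes tested, 5.02% were called up and 6.64% down by this cutoff. At a Benjamini-Hochberg adjusted p of 0.05 by limma, the shares were 0.242% up and 0.237% down, and of the 8 genes only *HSFA2* passed. With libraries of bulk leaf tissue, fewer cells that express a gene and less RNA per cell cannot be told apart.

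*HSFA2* showed the change of greatest size. It stood at 6.75, 5.14 and 7.04 FPKM in the WT libraries and at 1.67, 1.85 and 0.590 FPKM in the *kaku4-2* libraries. Every mutant value lay below every WT value, and the highest mutant value was well under the lowest of the WT. The mean was 4.61-fold lower in *kaku4-2*, with a log2 fold change of −2.25 ± 0.43 (SE) and a 95% interval from −3.17 to −1.33 (limma, adjusted p = 0.0354, Benjamini-Hochberg over all genes). The gene has 4 annotated transcripts on chromosome 2 (11135624 to 11137792, plus strand), and the FPKM do not distinguish between them. The library that stood apart was the lowest of the mutant libraries, at −1.43 on the log2 scale relative to the other mutant libraries, whereas genes of like length were at a median of 0.14. Without it, the log2 fold change was −1.77 (limma, adjusted p = 0.0222). When a WT library was left out, *HSFA2* kept its call by the cutoff but its adjusted p rose to between 0.265 and 0.402, and without *kaku4-2* replicate 1 it was 0.0802 (limma).

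The chaperones of the HSP100 and HSP90 families did not pass the test. HSP101 is a disaggregase that pulls proteins out of aggregates and is required for acquired heat tolerance. Its gene was at 0.544, 1.14 and 0.638 FPKM in WT and at 0.441, 0.535 and 0.513 FPKM in *kaku4-2*. The mutant values all lay below the WT values, but the closest of them differed by less than the spread of either group, and the log2 fold change was −0.49 with an interval from −1.51 to 0.53. Groups that did not overlap were seen at 15% of all genes in this direction and at 7.92% in the other. The end of *HSP101* shares 101 bases (3.08% of its transcript) with *AT1G74300* on the opposite strand, which stood at 9.05 to 14.03 FPKM, and whether the authors' counting used strand is not given in the sources used here.

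*HSP90.1*, the heat-inducible member of the cytosolic HSP90 family, split the mutant libraries. It was at 4.40, 4.56 and 5.60 FPKM in WT and at 2.49, 2.64 and 5.98 FPKM in *kaku4-2*. The first and second mutant libraries lay below all WT libraries, and the third lay above all of them. Across all 6 libraries the log2 fold change was −0.49 ± 0.38 (SE, interval from −1.31 to 0.33) and was not called. Without the third mutant library it was −0.89 and the gene was called down by the cutoff, although its adjusted p was 0.151 (limma, Benjamini-Hochberg). In the third mutant library *HSP90.1* was at 1.19 relative to the other mutant libraries, beside a median of 0.41 for genes of like length.

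The class I small heat shock proteins act in the cytosol, where they hold unfolding proteins in a soluble state. *HSP17.4* was at 1.54, 1.93 and 1.00 FPKM in WT and at 4.55, 4.14 and 4.13 FPKM in *kaku4-2*. All mutant values were above all WT values, and the mutant libraries were close to each other. The mean was 2.87-fold higher in *kaku4-2*, with a log2 fold change of 1.50 ± 0.37 (SE) and an interval from 0.71 to 2.29, and the gene was upregulated by the cutoff (limma, adjusted p = 0.106, Benjamini-Hochberg). The call was kept in all 18 alternative analyses, with log2 fold changes from 1.10 to 2.08 and adjusted p from 0.00250 to 0.712 (limma). Genes of like length had a median log2 fold change of −0.56, so *HSP17.4* moved against the trend of short genes in these libraries. Its position on chromosome 3 (16984118 to 16984867, minus strand, 1 exon) is shared in part with the lncRNA gene *AT3G07365* on the opposite strand, over 453 bases or 62.6% of its transcript, and with the end of *AT3G46220* over 60 bases. Without knowledge of strand, reads of *HSP17.4* and of the lncRNA cannot be told apart, and the value is uncertain in this respect. *AT3G46220* itself stood at 0.490, 0.895 and 0.439 FPKM in WT and at 0.650, 0.614 and 2.71 FPKM in *kaku4-2*. The lncRNA gene was not among the genes of the expression table, and the share of either neighbour in the reads was not tested.

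The other class I genes did not change by the test. *HSP18.2* was at 1.71, 2.02 and 2.23 FPKM in WT and at 2.56, 2.45 and 2.14 FPKM in *kaku4-2*. The groups overlapped, and the log2 fold change was 0.25 with an interval from −0.51 to 1.01. Without *kaku4-2* replicate 3 (0.33) or without WT replicate 3 (0.34) the groups did not overlap, but the gene was still not called. After removal of the length trend of each library the log2 fold change was 0.73 and passed the cutoff (limma, adjusted p = 0.215). *HSP17.6C* was at 0.649, 1.09 and 0.535 FPKM in WT and at 1.301, 0.205 and 0.730 FPKM in *kaku4-2*. The mutant libraries spanned the whole WT range, and the interval of the log2 fold change ran from −1.47 to 1.02, so that a change of the size seen for *HSP17.6A* was within its reach in either direction. *HSP17.4* and *HSP17.6C* are alike in sequence, with 85% identity of their coding bases, but their longest shared stretch is 29 bases, much shorter than a read.

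The class II small heat shock proteins form a separate group in the cytosol. Their genes *HSP17.6II* and *HSP17.6A* are neighbours on the minus strand of chromosome 5 (3882231 to 3883111 and 3883957 to 3884838) and share 86.1% of their coding bases, with a longest shared stretch of 33 bases. *HSP17.6A* was at 2.04, 2.14 and 1.26 FPKM in WT and at 4.08, 3.54 and 2.80 FPKM in *kaku4-2*. The mutant values all exceeded the WT values, and the mean was 1.91-fold higher. The log2 fold change was 0.92 ± 0.37 (SE, interval from 0.12 to 1.72), and the gene was upregulated by the cutoff (limma, adjusted p = 0.295). The call was lost when WT replicate 3 (0.69), *kaku4-2* replicate 1 (0.80) or *kaku4-2* replicate 2 (0.90) was left out. *HSP17.6II* was at 3.32, 1.17 and 1.76 FPKM in WT and at 1.59, 0.904 and 1.99 FPKM in *kaku4-2*. The groups overlapped, with the highest value in a WT library, and the log2 fold change was −0.40 with an interval from −1.39 to 0.60.

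**Figure D3:**
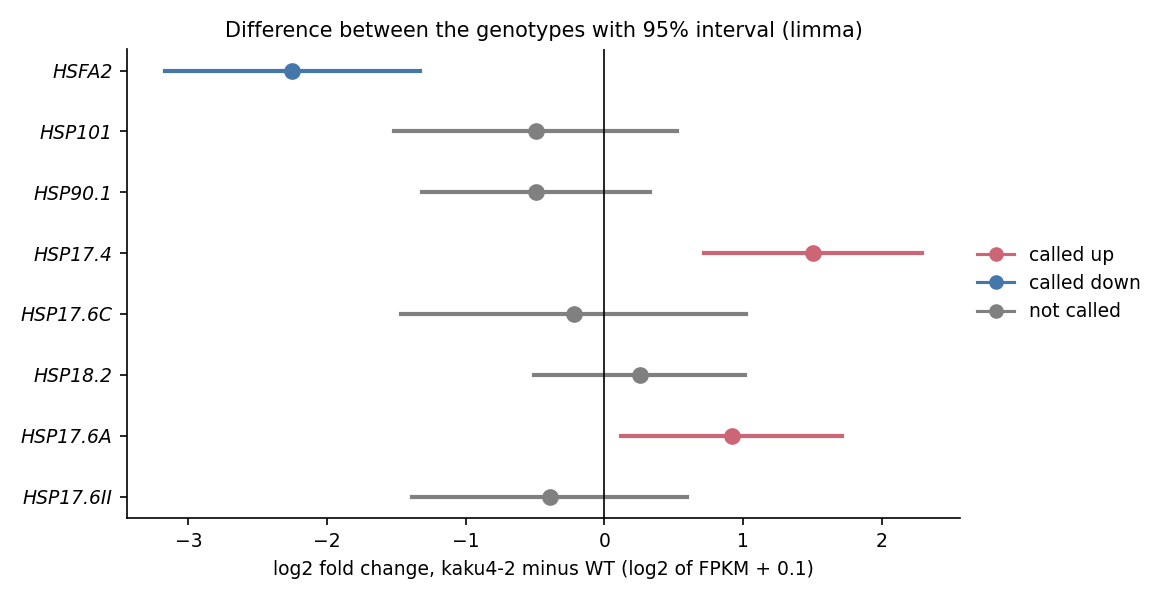
Log2 fold change of each measured gene (*kaku4-2* minus WT, on log2 of FPKM + 0.1) with its 95% interval from limma, coloured by the cutoff of the study. *HSFA2* lies at −2.25, *HSP17.4* at 1.50 and *HSP17.6A* at 0.92, and the intervals of the other 5 genes include 0.

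The same FPKM values are also given as ratios within each library, for pairs that were chosen after their values were seen and therefore with no test. All pairs but that of the class II neighbours contain *HSP17.4*, the gene already called up, so the ratios are not further evidence. The log2 ratio of *HSP17.4* to *HSP18.2* was −0.15, −0.07 and −1.08 in WT and 0.80, 0.74 and 0.92 in *kaku4-2*. The log2 ratio of *HSP17.4* to *HSP17.6C* was 1.13, 0.77 and 0.80 in WT and 1.73, 3.80 and 2.35 in *kaku4-2*. In both pairs the groups did not overlap, and both genes of a pair are short and of the same class. For the class II neighbours the log2 ratio of *HSP17.6A* to *HSP17.6II* was −0.68, 0.82 and −0.45 in WT and 1.31, 1.86 and 0.47 in *kaku4-2*, and there the groups overlapped. The widest divergence was between *HSP17.4* and *HSFA2*, with a log2 ratio of −2.07, −1.37 and −2.69 in WT and of 1.39, 1.12 and 2.62 in *kaku4-2*. In every WT library *HSFA2* was the higher of the pair, and in every mutant library *HSP17.4* was.

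The 8 genes were also set against the length trend of the third mutant library. The median deviation for genes of the length of the small heat shock genes lay between −1.03 and −0.85, whereas the 5 small heat shock genes deviated by between −0.42 and 0.68 from the other mutant libraries. *HSP101*, with a transcript of 3284 bases, deviated by 0.06, beside a median of 1.14 for its length. With the length trend of every library removed, the log2 fold changes were −2.32 for *HSFA2*, 2.08 for *HSP17.4* and 1.47 for *HSP17.6A*, and the median of the 8 genes moved from −0.31 to 0.24. It was also positive without *kaku4-2* replicate 2 (0.07). The part of the trend in these results beyond this removal was not tested.

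**Figure D4:**
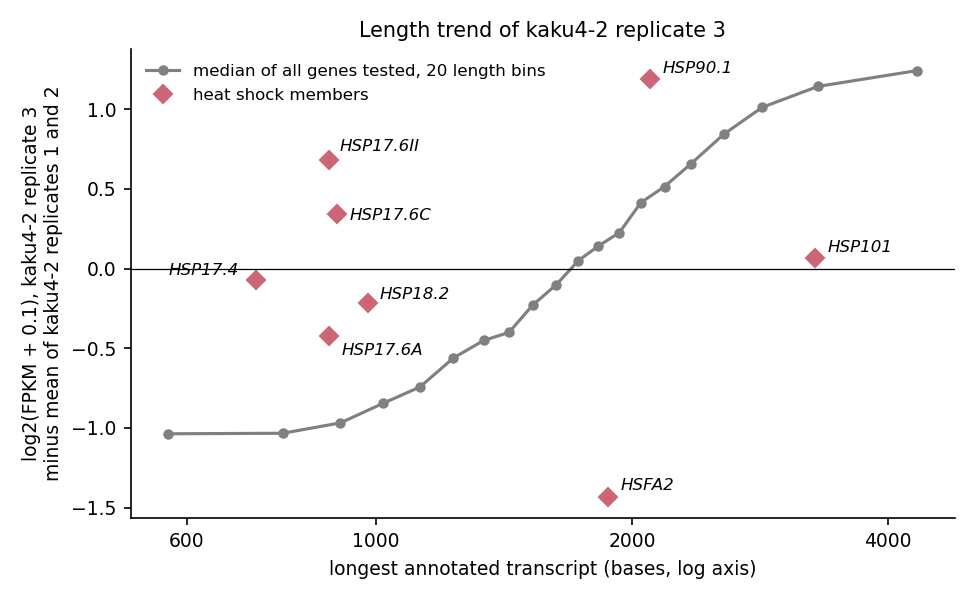
Deviation of the third *kaku4-2* library from the mean of the other *kaku4-2* libraries (log2 of FPKM + 0.1) against transcript length in bases (log axis), as medians of 20 length bins over all genes tested (grey) and for each heat shock gene (red). The bin medians run from −1.04 to 1.24, *HSFA2* lies at −1.43 and *HSP90.1* at 1.19.

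The other genes of the heat shock response were then examined in 5 lists of 72 genes, of which 65 were tested. Of these, 2 were upregulated and 13 downregulated by the cutoff, beside shares of 5.02% up and 6.64% down over all genes tested. The median log2 fold change of the 65 genes was −0.15, beside −0.02 over all genes tested. The median was 0.03 under quantile normalization and ranged from −0.27 to −0.01 with a library left out. Without *kaku4-2* replicate 1 or replicate 3 the number of upregulated genes was 4. The number of downregulated genes was 18 without *kaku4-2* replicate 3 and 9 without WT replicate 3. At an adjusted p of 0.05 by limma, 1 gene of these lists passed, and it was lower in the mutant (*HSP17.4-CIII*).

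Of 17 heat shock factor genes other than *HSFA2*, 1 was upregulated and 4 were downregulated (*HSFC1*, *HSFA7A*, *HSFB2B* and *HSFB2A*), with a median of 0.08. The median turned negative when any of the *kaku4-2* libraries was left out (−0.08 without replicate 1 or 2, −0.09 without replicate 3) and without WT replicate 2 (−0.13), with the filter at a mean FPKM of 1 (−0.33), under quantile normalization (−0.04), with array weights (−0.14) and with the length trend removed (−0.01). *HSFA1B* encodes a class A1 factor that helps to start the response. It rose from 0.419, 0.240 and 0.195 FPKM in WT to 0.753, 0.943 and 1.54 FPKM in *kaku4-2*, a log2 fold change of 1.60 at a low level. The class C factor gene *HSFC1* fell from 13.3, 15.3 and 17.2 FPKM to 7.48, 6.62 and 5.20 FPKM, a log2 fold change of −1.24 (limma, adjusted p = 0.0906). *HSFB2B*, for a class B factor that represses heat-inducible genes, fell from 8.88, 8.64 and 8.98 FPKM to 5.86, 4.62 and 3.34 FPKM. *HSFA7A*, which like *HSFA2* is induced by heat, was called at −1.15, but lost the call without WT replicate 3 (−0.86) and without *kaku4-2* replicate 3 (−0.83). For *HSFC1* and *HSFB2B* the groups did not overlap, and the calls by the cutoff were kept in all 18 alternatives. The number of downregulated factor genes was 2 without WT replicate 3, and that of upregulated ones was 3 without *kaku4-2* replicate 3.

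The 12 other small heat shock protein genes were mostly lower in the mutant. The log2 fold change was below 0 for 11 of them, 7 were downregulated by the cutoff, 5 did not pass, and the median was −0.78. Over all genes tested, 48.9% had a log2 fold change above 0 and 6.64% were called down. *HSP17.4-CIII* (*AT1G54050*), for a class III protein, fell from 63.7, 71.3 and 95.9 FPKM to 29.8, 27.4 and 16.5 FPKM, and was the gene of these lists that passed at an adjusted p of 0.05 (log2 fold change −1.67, limma, adjusted p = 0.0291). Its call by the cutoff was kept in all 18 alternatives. Its adjusted p rose to between 0.196 and 0.363 when a WT library was left out, to 0.0663 without *kaku4-2* replicate 1, to 0.0704 with the replicate block, to 0.0515 without the filter and to 0.144 without the trend of the prior variance (limma). *HSP23.5*, for a mitochondrial protein, fell from 9.33, 7.36 and 11.8 FPKM to 3.82, 3.29 and 1.20 FPKM. *HSP23.6*, also mitochondrial, was at 0.261, 0.222 and 0.565 FPKM in WT and was listed at 0 in the 3 *kaku4-2* libraries. It passed the filter through its WT values alone, and its adjusted p was 0.194 (limma). Its log2 fold change was −0.42 with a pseudocount of 1 and −5.05 with 0.01, so its size is not defined and its call rests on very low values. The other downregulated genes were *HSP17.6A-CI* (−1.52), *HSP18.5* (−1.42), *HSP17.8-CI* (−0.78) and *HSP21.7* (−0.78). The direction of this list was thus opposite to that of *HSP17.4* and *HSP17.6A*. These genes are short, and genes of like length to the measured small heat shock genes had medians between −0.56 and −0.47. With the length trend removed, 5 genes were called down and the median was −0.27, and with *kaku4-2* replicate 3 left out 6 were called down with a median of −0.67. *HSP17.6A-CI* and *HSP17.8-CI* share 88.1% of their coding bases, with a longest shared stretch of 43 bases.

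In each of the lists of larger chaperones and co-chaperones 1 gene passed the cutoff. Over all genes tested, 5.02% were called up and 6.64% down, so these counts do not set the lists apart. Of the 8 other HSP90 and HSP100 genes tested, *HSP90.7* was upregulated, from 9.98, 12.2 and 8.32 FPKM to 17.5, 20.9 and 50.02 FPKM. HSP90.7 is the HSP90 of the endoplasmic reticulum, and unlike *HSP90.1* it was higher in each mutant library than in any WT library. Of 14 HSP70 genes, *HSP70-4* was downregulated, from 10.4, 11.4 and 7.43 FPKM to 3.18, 3.82 and 9.42 FPKM. As for *HSP90.1*, the third mutant library was the exception, and the groups overlapped. Leaving out WT replicate 1 (−0.91), WT replicate 2 (−0.84), *kaku4-2* replicate 1 (−0.66) or *kaku4-2* replicate 2 (−0.79) ended the call, and without *kaku4-2* replicate 3 the log2 fold change was −1.43. The lowest adjusted p of *HSP70-4* with a library left out was 0.0470 (limma). The medians of these lists, 0.35 and 0.22, turned to −0.14 and −0.28 without *kaku4-2* replicate 3, and the number of downregulated genes rose from 0 to 2 and from 1 to 3. Without *kaku4-2* replicate 1 or replicate 2, 2 HSP90 and HSP100 genes were called up. Among 14 co-chaperone and other heat-inducible genes, *MBF1C*, for a transcriptional coactivator of the heat response, was downregulated, from 76.4, 64.4 and 74.7 FPKM to 34.3, 40.2 and 22.7 FPKM. The other 13 did not pass the cutoff, although *FES1A*, at −0.66 with an interval from −1.27 to −0.04, missed only its limit on the medians (−0.51). Of this list 2 genes were called down without *kaku4-2* replicate 1 or replicate 2, and 3 without replicate 3.

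**Figure D5:**
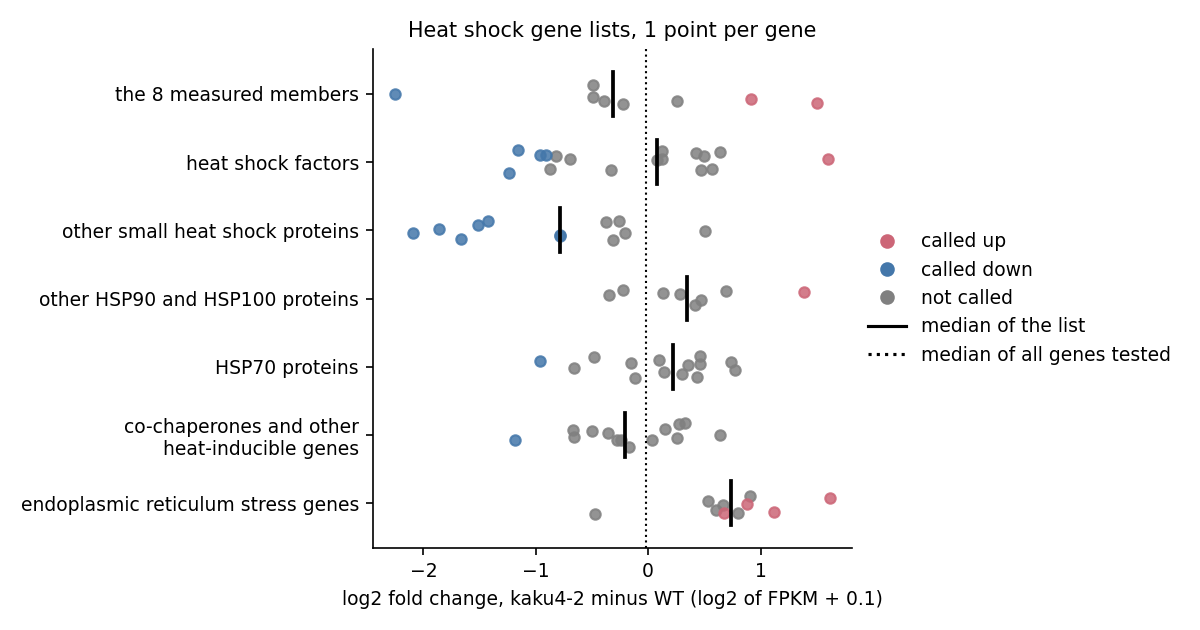
Log2 fold change (*kaku4-2* minus WT, on log2 of FPKM + 0.1) of each tested gene in the 8 measured heat shock genes and 6 related lists, coloured by the cutoff of the study, with the median of each list (line) and of all genes tested (dotted). The other small heat shock proteins have a median of −0.78 and the endoplasmic reticulum stress genes one of 0.74.

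The pattern of *HSFA2* over the 6 libraries was closest to those of *ASG8* (r = 0.998), *ANNAT4*, *MBF1C*, *cPT4* and *AT5G12110* (r = 0.997 each), by Pearson's r of log2(FPKM + 0.1). All 5 were lower in each mutant library than in any WT library and lowest in the third mutant library. This is a description with no test, since the 6 libraries fall into the genotype groups and 483 genes had an r of at least 0.95. The r of the other measured heat shock genes with *HSFA2* ranged from −0.89 for *HSP17.4* to 0.49 for *HSP101*.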

How the data were processed

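Per the labels and the methods of the study, RNA was sequenced in paired-end reads, and the authors mapped them to TAIR10 by TopHat2 2.0.9 and Bowtie2 and derived FPKM values by Cufflinks. The Cufflinks version, the annotation and the use of strand are not given in the sources used here. The deposited FPKM are not counts. Fragments behind a value were estimated roughly from the spacing of low values and used in no test. After removal of genes whose mean was below 0.1 FPKM, log2(FPKM + 0.1) was compared between genotypes by limma 3.58.1 (R 4.3.3), two-sided, without covariates and with a prior variance that follows the mean. A fold change on this scale understates the change of low genes. P-values were adjusted over the 20638 genes tested. With 3 libraries against 3, an exact permutation test of a single gene cannot go below 0.1, the value obtained for *HSFA2*, *HSP101*, *HSP17.4* and *HSP17.6A*. The fit was tested on simulated data.

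The members and lists were chosen with earlier results of these data known. The genes named were all 10 heat shock genes, *KAKU4*, at most the 3 genes of greatest change per direction among those called in each other list, and the 5 genes most like *HSFA2*. Others were named after their values were seen. Positions, transcript lengths and sequences came from the RefSeq annotation of TAIR10.1, whose nuclear chromosomes have the coordinates of TAIR10. The 18 alternatives were other pseudocounts, filters, scalings, variance models, folds, a replicate block and each library left out. The ChIP-seq libraries are not analysed here.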

Additional observations from a re-analysis of the deposited data

How the results depend on the processing

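*HSFA2* and *HSP17.4* kept their direction and their call by the cutoff in all 18 alternatives, *HSFA2* with log2 fold changes from −2.52 to −1.66. The count of 2 upregulated genes among the 8 became 1 under quantile normalization and with the replicate block, in which the *HSP17.6A* call was lost (0.72 and 0.92). It ranged from 1 to 2 with a library left out. The count of 1 downregulated gene became 2 with array weights, which gave the third mutant library a weight of 0.123, and ranged from 1 to 2 with a library left out. The count of 1 gene at an adjusted p of 0.05 (limma) became 0 without the filter, under quantile normalization, with the length trend removed and without the trend of the prior variance, became 4 with array weights, and ranged from 0 to 1 with a library left out. The log2 fold change of *HSP17.6C* turned positive without WT replicate 2 (0.04), without *kaku4-2* replicate 2 (0.38) and with the length trend removed (0.33), with a range from −0.71 to 0.38 over the libraries left out, and that of *HSP17.6II* with the length trend removed (0.15). Of the 65 other heat shock genes, the 2 upregulated became 1 with a filter at a mean FPKM of 1 and 4 with array weights, and ranged from 2 to 4 with a library left out. The 13 downregulated became 18 with array weights, and ranged from 9 to 18 with a library left out. The count of genes whose mutant values all lay above the WT values was 2, beside 7.92% of all genes tested, and 1 under quantile normalization. It was 3 with the length trend removed, without WT replicate 3 and without *kaku4-2* replicate 3. The count of those all below was 2, beside 15% of all genes tested, and 1 with the filter at 1 and with scaling by the median ratio. Without *kaku4-2* replicate 3 it was 3. Over all genes, 43.1% of calls were upregulated, 55.3% with the length trend removed and 30.9% without *kaku4-2* replicate 2. Same-numbered libraries deviated with correlations of −0.16, −0.03 and −0.41. Deviations from means of 3 libraries are not independent of each other, so these values cannot decide whether same-numbered samples were paired. The labels do not state a pairing. The replicate block changed no call of the 8 genes other than *HSP17.6A*. The causes of these changes were not tested. *HSP17.6C* had an estimated 3.24 to 21 fragments per library, and whether depth limits its result was not tested.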

Other observations

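Genes of the endoplasmic reticulum stress response, which encode chaperones of that compartment and are induced by unfolded proteins there rather than by HSFA2, were higher in the mutant in 9 of 10 cases, with a median log2 fold change of 0.74. By the cutoff 4 were upregulated and the other 6 did not pass it. Over all genes tested, 48.9% had a log2 fold change above 0 and 5.02% were called up. *BIP3*, the stress-inducible member of the BIP genes for the luminal HSP70, rose from 0.981, 0.838 and 1.10 FPKM in WT to 2.27, 2.57 and 5.43 FPKM in *kaku4-2*, a log2 fold change of 1.62 with the lowest adjusted p of the list (limma, 0.135), and kept its call in all 18 alternatives. *ERDJ3B*, for a co-chaperone of BIP, was at 38.3, 29.7 and 34.1 FPKM in WT and at 53.1, 53.3 and 56.4 FPKM in *kaku4-2*. *BIP2* (1.12) and *BIP1* (0.88) were called as well, but are nearly identical in sequence and lost the call without WT replicate 1 (1.02 and 0.83), WT replicate 3 (0.81 and 0.75) or *kaku4-2* replicate 3 (0.73 and 0.50), and with the length trend removed (0.78 and 0.47). *BIP2* also lost it with array weights (0.54) and *BIP1* without the trend of the prior variance. *BZIP60*, for a transcription factor of this response, was the exception, at 111.7, 163.7 and 186.6 FPKM in WT and 145.5, 149.6 and 58.4 FPKM in *kaku4-2*. Without *kaku4-2* replicate 3, 2 genes of the list were called and the median was 0.49. Without WT replicate 1, 2 were called, without WT replicate 3, 1, and without *kaku4-2* replicate 1, 8.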
